A study of Homo sapiens with 9 samples.

Results

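The cluster on 19q13.12 is a run of zinc finger genes on the long arm of chromosome 19, from ZNF565 to ZNF573 around ZNF260. Its 30 members are named genes of this run that were chosen by their values in HRD against parental libraries: several were far lower in daunorubicin-resistant HL-60 cells than in parental cells. The HRD values given here therefore describe that choice and are no test of it. Of the 30 members, 28 were among the 20637 genes of the deposited table, and ZNF829 and ZNF585A were not analysed here. HL-60 is a human promyelocytic leukemia cell line. The polyA RNA-seq libraries, made with a strand-preserving kit, came from 3 groups of 3 biological replicates each: parental HL-60 cells with no drug named, HL-60 cells resistant to cytarabine (Ara-C) and kept in 100 nM Ara-C (HRA), and HL-60 cells resistant to daunorubicin (DNR) and kept in 30 nM DNR (HRD). The labels name 1 HRA and 1 HRD population, so the replicates do not cover independently derived resistant lines. Acquired resistance and the drug present in the medium cannot be told apart, and whether the replicates came from separately grown cultures is not given, so the spread between them may be partly technical.

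Most genes of this cluster encode proteins with an array of C2H2 zinc fingers that reads DNA, joined to a KRAB domain that recruits TRIM28 (KAP1). TRIM28 brings the histone methyltransferase SETDB1 and HP1 proteins, which mark the bound DNA as heterochromatin, and many of these proteins bind transposable elements. The genes lie in runs on chromosome 19 because they arose by tandem duplication, and ZNF146 and ZNF260 are exceptions that have fingers without a KRAB domain.

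Values are the authors' read counts after division by a size factor per library ("normalized counts"), and they do not correct for gene length, so levels are compared between groups and not between genes. The libraries held between 20822709 and 66563328 reads recovered from the values, and 3 reads corresponded to 1.49 to 4.52 normalized counts. A gene was tested if it reached 10 normalized counts in at least 3 of the 9 libraries, which 12569 genes and 20 members did. Calls rest on limma with log2(value + 1), at p below 0.05 after Benjamini-Hochberg adjustment. That is the scale of the log2 fold changes here, except where another pseudocount or tool is named. Levels of HL-60 granule and surface markers summed to 288495–331088 in parental, 259040–288427 in HRA and 210296–268439 in HRD libraries, although ELANE, one of the 6, had group means of 0.858 to 1.88. Erythroid and fibroblast markers, of which only 1 of 3 in each list was in the table, stayed at or below 1.5 normalized counts. Epithelial markers summed to 65.0–100.4 in parental and 274–390 in HRD libraries, with KRT8 at 80.2 and 342 in the group means and KRT19 at 0 in both groups. T cell markers summed to 18–18.4 in parental, 11–31.1 in HRA and 2.14–3.01 in HRD libraries, and B cell markers to 8.99–19.6, 23.1–40.6 and 1.51–6.45. All 3 listed T cell genes were in the table, but only 2 of 3 B cell and 2 of 3 epithelial genes. The part of such cells in the differences of the cluster was not tested. In bulk RNA, fewer cells with a transcript and less RNA per cell cannot be told apart, and gene copy number was not measured.

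In HRD cells the cluster was low in patches rather than throughout. ZNF260, the 3 adjacent genes ZNF850, ZNF790 and ZNF345, and their low neighbour ZNF568 had almost no reads in HRD, while the members directly beside ZNF260 and beside that run kept 67.7% to 84.0% of the parental level. A group near the distal end (ZNF540, ZNF571 and ZFP30) kept 8.25% to 17.8%, and ZFP14 and HKR1 kept 27.2% and 34.9%. The outermost members, ZNF565, ZNF146 and ZNF573, were near their parental levels. In HRA cells no member was called lower, beside 6.1% of all tested genes. Called higher were 2 of 20 tested members (10.0%), near the 9.13% of all tested genes.

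**Figure D1:**
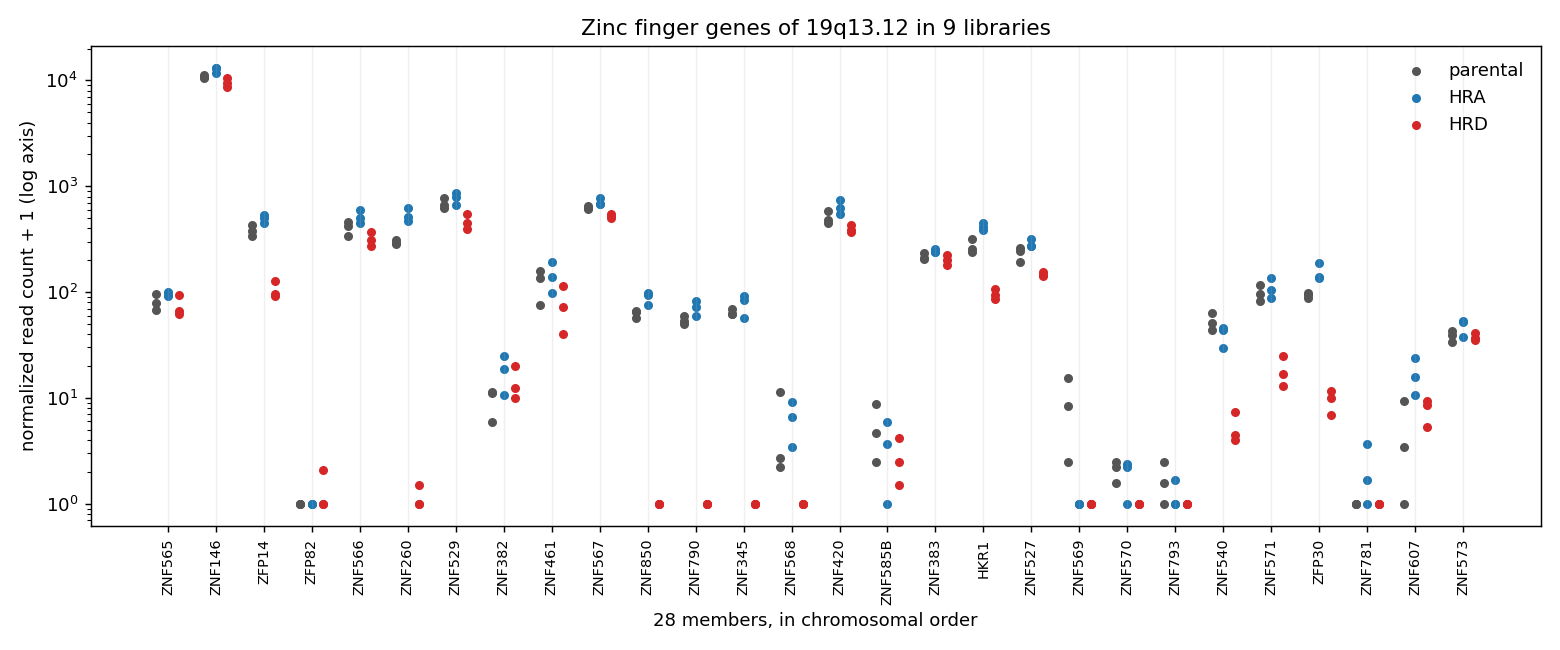
Normalized read count plus 1 (log axis) of the 28 members in the table, in chromosomal order, with 1 point for each of the 9 libraries (3 parental, 3 HRA, 3 HRD). The HRD points of ZNF260, ZNF850, ZNF790, ZNF345 and ZNF568 sit at or next to the bottom of the axis, and those of ZNF565, ZNF146 and ZNF573 sit among the other groups.

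ZNF260, a zinc finger protein without a KRAB domain that was described as a cardiac regulator in rodents, had 289, 285 and 309 normalized counts in the 3 parental libraries. It had 512, 473 and 623 in HRA and 0.496, 0 and 0 in HRD, and the 3 groups did not overlap. These are 953 reads in parental, 1595 in HRA and 1 read in HRD over each group. Scaled to depth, parental cells had 1056 times the HRD level, with a 95% counting interval of 189 to 41735 that covers counting error only. The neighbours on either side did not share this. ZNF566 had 419.8, 336 and 456 in parental, 505, 448 and 601 in HRA and 307, 271 and 369 in HRD, 78.1% of the parental mean. ZNF529, on the other side, had 662, 617 and 772 in parental, 796, 659 and 871 in HRA and 451, 396 and 541 in HRD, 67.7% of the parental mean. Only the second of these neighbours had HRD values wholly below the parental ones, and only it was called lower (log2 fold change −0.57 ± 0.15 SE).

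ZNF850, ZNF790 and ZNF345 formed a run with no read in any HRD library. ZNF850 had 64.0, 65.0 and 55.5 normalized counts in parental and 75.4, 92.0 and 97.5 in HRA libraries. ZNF790 had 58.9, 52.8 and 49.5 in parental and 71.2, 58.2 and 81.6 in HRA libraries. ZNF345, whose start lies 84 bases from that of ZNF790 on the opposite strand, had 61.2, 61.3 and 68.9 in parental and 83.1, 55.5 and 91.4 in HRA libraries. No HRD library held a read of any of these 3 genes, whereas every parental and HRA library did, and they are given in full after their values were seen. Against a floor of 3 reads over the HRD group, ZNF850 was at least 75.3-fold lower than parental, ZNF790 at least 66.8-fold and ZNF345 at least 75.7-fold. The next gene of the run in the table, ZNF568, whose mouse counterpart represses a placental transcript of Igf2, had 11 parental, 16 HRA and 0 HRD reads, at least 4.06-fold lower, and was too low to be tested.

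Both ends of this run met genes that kept most of their RNA. ZNF567, on the proximal side, had 604, 620 and 647 normalized counts in parental, 675, 672 and 772 in HRA and 547, 526 and 499 in HRD, which was 84.0% of parental. Its 3 HRD values lay below all 3 parental ones, but it was not called (log2 fold change −0.25). ZNF420, a KRAB zinc finger gene on the distal side, had 453, 475 and 583 in parental, 628, 551 and 742 in HRA and 381, 371 and 430 in HRD, 78.2% of parental. Its HRD values also lay wholly below the parental ones and it was not called (−0.35).

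**Figure D2:**
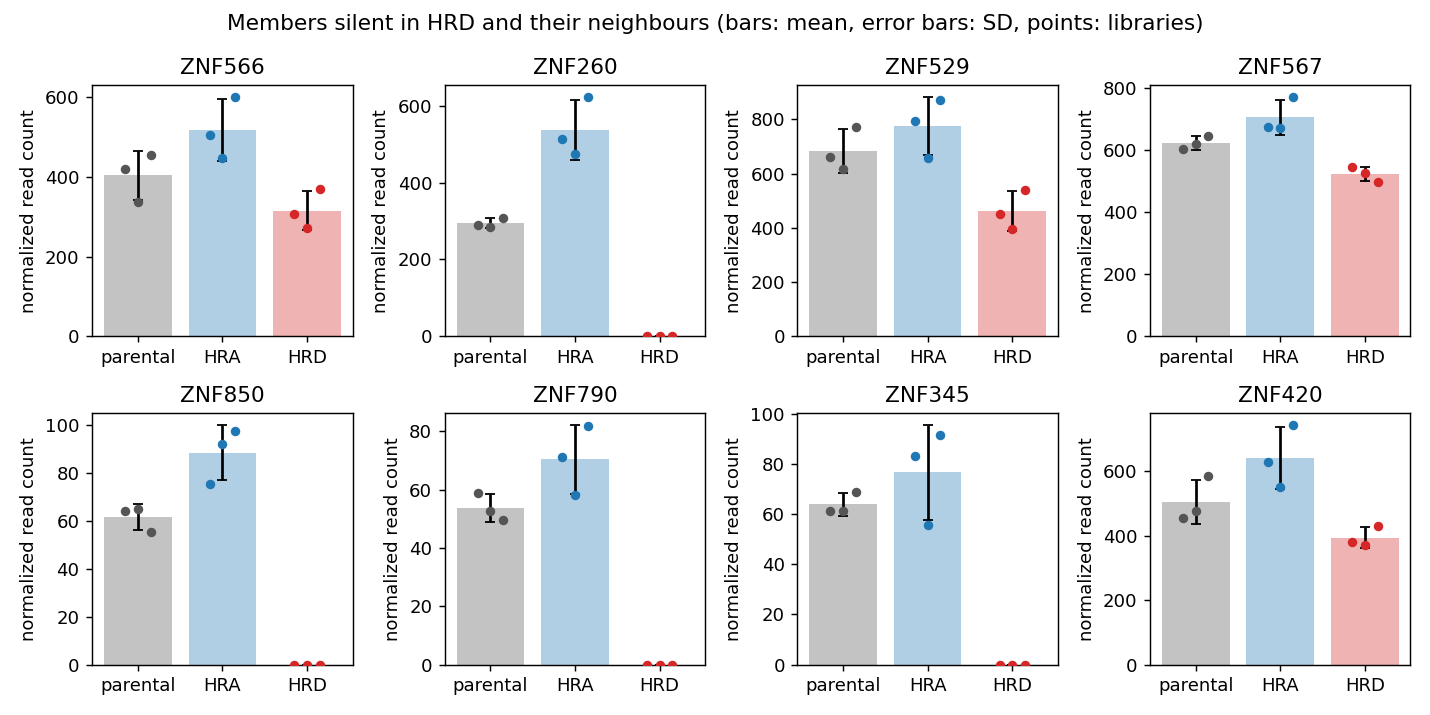
Normalized read counts (linear axes from 0) of ZNF260, ZNF850, ZNF790 and ZNF345 and of the members beside them (ZNF566, ZNF529, ZNF567 and ZNF420). Bars are means, error bars SD and points the 3 libraries of each group. The HRD bar is at or next to 0 in 4 panels and at 67.7% to 84.0% of the parental mean in the other panels.

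The loss of nearly all reads was rare in the table as a whole. Of the 10481 genes that averaged 50 or more normalized counts in parental libraries, 19 genes (0.181%) had 3 reads or fewer over the HRD group, and 4 of the 18 members at that level did (ZNF260, ZNF850, ZNF790 and ZNF345). The members were chosen for this pattern, so the count describes the choice. None of 18 flanking genes at that level, 6 of 103 other zinc finger genes of chromosome 19 (ZNF431, ZNF530, ZNF577, ZNF614, ZNF649 and ZNF714) and 1 of 208 zinc finger genes on other chromosomes (ZNF736) had as few. None of the 10481 genes had 3 reads or fewer over the HRA group.

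The DNA before the starts of these genes was compared, because genes with no reads sat beside genes with many. The RefSeq promoter table (GRCh38.p14, windows of 250 bases before and 50 after a gene's first listed start) had a window for 27 of the 30 members, with HKR1 listed as ZNF875. The longest sequence present in at least 6 of these windows, on either strand, was the 15-base ACTACATTTCCCAGA, which resembles part of the site of the zinc finger factor ZNF143 and which was looked for after similar letters had been noticed on viewing the windows. Exact copies were in 6 of 27 member windows (22.2%), the number that the search required, and in 0.139% of 27305 promoters of all genes. Copies with at most 1 mismatch were in 11 member windows (40.7%) and in 0.593% of all promoters. Such copies were also before 21 of 156 other zinc finger genes of chromosome 19 (13.5%) and 16 of 213 on other chromosomes (7.51%). The sequence was taken from the member windows, so the member shares describe that choice and are no test of it. The 10 distinct copies with at most 1 mismatch are printed here 5′ to 3′ on the strand that reads ACTACA or its nearest form, with the 15 bases in capitals and flanking bases in lower case, because they lie before genes of every kind in this cluster. The 4 members with 3 HRD reads or fewer and a parental mean of at least 50 (ZNF260, ZNF850, ZNF790 and ZNF345) carry one. Of the members with 3 HRD reads or fewer and lower parental means, ZNF568 and ZNF569 carry one, ZNF570, ZNF793 and ZFP82 do not, and ZNF781 has no window. Copies also lie before ZNF527 (lower in HRD) and ZNF461, ZNF567, ZNF420 and ZNF573 (not called in HRD).
ZNF260: gagggtagACTACATTTCCCAGAaggttc
ZNF461 and ZNF567: cccctcggACTGCATTTCCCAGAggacac
ZNF850: ggctctggACTACATTTCCCAGAggatcc
ZNF790 and ZNF345: ctttctggACTACACTTCCCAGAagcctc
ZNF568: cgctctggACTACATTTCCCAGAgggcct
ZNF420, proximal copy: agcgctggACTACATTTCCCAGAggcacg
ZNF420, distal copy: agcgctggACTACATTTCCCAGAggcacc
ZNF527: atcgttgaACTACATCTCCCAGAgaaccc
ZNF569: tgcgccgaACTACATTTCCCAGAggcctt
ZNF573: aggcttaaACTACATTTCCCAGAgggcaa
The copies before ZNF461 and ZNF567, before ZNF790 and ZNF345, and before ZNF527 have 1 mismatch each, and the other 7 are exact. On GRCh38.p14 the printed stretches lie at chr19:36528374-36528402, plus strand (ZNF260), chr19:36666852-36666880, minus strand (ZNF461 and ZNF567), chr19:36772874-36772902, minus strand (ZNF850), chr19:36850782-36850810, plus strand (ZNF790 and ZNF345). Those of the more distal genes lie at chr19:36916082-36916110, minus strand (ZNF568), chr19:37078332-37078360, plus strand (ZNF420, proximal copy), chr19:37078369-37078397, plus strand (ZNF420, distal copy), chr19:37370998-37371026, minus strand (ZNF527), chr19:37467442-37467470, plus strand (ZNF569), chr19:37779598-37779626, minus strand (ZNF573). Of the tested members with a window, 5 of 9 with a copy and 4 of 9 without one were called lower in HRD. Among other zinc finger genes of chromosome 19, 8 of 17 tested genes with a copy (47.1%) and 36 of 96 without one (37.5%) were called lower. Among zinc finger genes on other chromosomes, 6 of 13 with a copy (46.2%) and 33 of 170 without one (19.4%) were called lower. Over all tested genes with a window the shares were 21.7% of 115 and 12.3% of 9576. These differences were not tested. A match gives the letters in the window and no more.

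A longer stretch is given for 1 gene without HRD reads and for 1 that kept most of its RNA, to let the sequence around the copies be compared. The bases before the start of ZNF850 (chr19:36772826-36773057, minus strand of GRCh38.p14) hold 1 copy, and those before the start of ZNF420 (chr19:37078183-37078432, plus strand of GRCh38.p14) hold 2 copies. Parts that annotated exons of protein-coding transcripts cover were left out, and capitals mark the 15-base sequence.
ZNF850: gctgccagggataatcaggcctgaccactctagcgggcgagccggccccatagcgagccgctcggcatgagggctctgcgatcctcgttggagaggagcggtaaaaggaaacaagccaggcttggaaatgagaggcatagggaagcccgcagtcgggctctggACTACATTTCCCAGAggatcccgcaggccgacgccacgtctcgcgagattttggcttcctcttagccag
ZNF420: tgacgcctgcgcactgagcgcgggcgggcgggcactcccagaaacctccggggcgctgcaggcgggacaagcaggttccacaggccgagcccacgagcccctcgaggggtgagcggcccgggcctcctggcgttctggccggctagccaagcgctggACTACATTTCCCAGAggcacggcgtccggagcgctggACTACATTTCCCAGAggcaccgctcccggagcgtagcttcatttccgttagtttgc
Both stretches are rich in CpG, with 17 CpG dinucleotides in the 232 bases of ZNF850 and 25 in the 250 bases of ZNF420. The ratio of observed to expected CpG in the full windows had a median of 0.795 over the 27 members (range 0.570 to 1) and 0.580 over all promoters. In the 4 members with 3 HRD reads or fewer and a parental mean of at least 50 its median was 0.747 (range 0.570 to 0.812). In the 9 members that were tested and not called its median was 0.802 (range 0.667 to 1), so the ranges overlapped. GC content had a median of 61.0% in member windows and 58.3% over all promoters. The motif GGGCGG, counted on both strands, was in 7 member windows (25.9%) and in 44.6% of all promoters.

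Several members start back to back on opposite strands. The first listed starts lie within 1000 bases in 6 pairs: ZNF565 and ZNF146 (22 bases), ZNF529 and ZNF382 (56), ZNF461 and ZNF567 (97), ZNF790 and ZNF345 (84), ZNF829 and ZNF568 (41), and ZNF569 and ZNF570 (328). In 2 pairs both genes had no HRD reads: ZNF790 and ZNF345, and ZNF569 and ZNF570, of which the latter had few reads in any group. In the pair of ZNF529 and ZNF382 the first was lower in HRD and the second, with 10.1, 4.91 and 10.5 normalized counts in parental and 11.4, 9.04 and 19.2 in HRD, was not called and was the 1 tested member with a positive log2 fold change in HRD (0.58). Some members also overlap on opposite strands (ZNF565 with ZNF146, ZNF529 with ZNF382, ZNF790 with ZNF345, ZNF569 with ZNF570 and ZNF540 with ZNF571). How the counting treated strand is not given in the sources used here, so reads of such partners may not be cleanly separated.

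Apart from the genes with 3 HRD reads or fewer, the lowest tested members in HRD lay together near the distal end. ZNF540 had 50.5, 42.9 and 63.0 normalized counts in parental, 43.3, 28.4 and 45.1 in HRA and 3.47, 3.01 and 6.41 in HRD, so HRD was 12.1-fold below parental. ZNF571 had 81.4, 115 and 95.9 in parental, 105, 86.6 and 134 in HRA and 11.9, 24.1 and 16 in HRD, a 5.62-fold difference. ZFP30 had 87.0, 96.9 and 92.9 in parental, 134, 139 and 188 in HRA and 5.95, 9.04 and 10.7 in HRD, a 10.8-fold difference. For all 3 genes, which were also given in full after their values were seen, every HRD library lay below every parental and HRA library. Between this group and HKR1, ZNF569 had 33 parental reads (14.6, 7.36 and 1.5 normalized counts) and none in either resistant group. It was at least 12.2-fold lower in HRD and at least 10.1-fold lower in HRA than in parental, from parental libraries that themselves differed widely, and was not tested.

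Intermediate losses were seen at ZFP14 and HKR1, far apart in the run. ZFP14 had 341, 374 and 433 normalized counts in parental, 451, 530 and 499 in HRA and 94.8, 91.9 and 126 in HRD. HKR1, named for its likeness to the fly gene Krüppel, had 253, 240 and 319 in parental, 409, 384 and 446 in HRA and 92.3, 85.9 and 106 in HRD. The HRD means were 3.67-fold and 2.86-fold below parental, and in both genes the HRD values lay below all others. ZNF527, next to HKR1, fell less: 245, 193 and 261 in parental, 273, 269 and 318 in HRA and 153, 140 and 145 in HRD, 62.7% of parental. ZNF461, first described as induced by gonadotropin in rat ovary, had 135, 74.8 and 159 in parental, 138, 97.4 and 191 in HRA and 70.9, 39.2 and 113 in HRD, and all 3 groups overlapped.

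Tested members whose HRD mean was 88.0% to 97.8% of the parental mean lay mostly at the edges. ZNF146, a protein made almost only of fingers, had 11191, 10782 and 10580 normalized counts in parental, 13107, 11841 and 13180 in HRA and 10587, 8704 and 9366 in HRD, 88.0% of parental and overlapping with it. ZNF565 had 94.3, 78.5 and 67.4 in parental and 92.3, 61.8 and 65.2 in HRD, and ZNF573, at the other end, 41.5, 38.0 and 33.0 and 39.7, 36.2 and 34.2. ZNF383, inside the cluster and next to HKR1, had 204, 234 and 211 in parental, 257, 238 and 236 in HRA and 226, 181 and 202 in HRD, 93.6% of parental. These 4 genes were not called in HRD, and neither were ZNF566, ZNF382, ZNF461, ZNF567 and ZNF420, which lie inside the cluster.

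The remaining members had few reads in any group and were not tested. ZFP82 had a single read in all 9 libraries, in HRD. ZNF585B, which may share reads with its near-identical copy ZNF585A and is therefore uncertain, had 18 parental, 9 HRA and 5 HRD reads. ZNF570 had 3, 3 and 0 reads, ZNF793 had 2, 1 and 0, and ZNF781, listed as a pseudogene in RefSeq, had 0, 3 and 0. At these counts a difference was not detectable. ZNF607 had 17, 43 and 26 reads, and its HRA libraries (9.77, 23.0 and 14.6 normalized counts) lay above its parental ones (8.42, 2.45 and 0).

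Counted over the cluster, 11 of the 20 tested members were called lower and 0 higher in HRD against parental, beside 12% of all tested genes called lower and 10.7% called higher. Unadjusted p-values below 0.05 in limma gave 13 lower and 0 higher. On the recovered reads, edgeR and DESeq2 each gave 11 lower and 0 higher. Among 127 other tested zinc finger genes of chromosome 19, the same criteria gave 60, 49 and 49 lower and 7, 4 and 5 higher. The share of all tested genes is not given for these counts, and the 12% does not apply to them. Lower by at least 2-fold were 9 members, beside 2.35% of all tested genes, and in 13 members every HRD library lay below every parental one, beside 18.2%. The median log2 fold change of the 20 members was −0.72, and that of all tested genes was 0.01. Because this comparison chose the members, the counts describe the cluster and give no test of it.

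**Figure D3:**
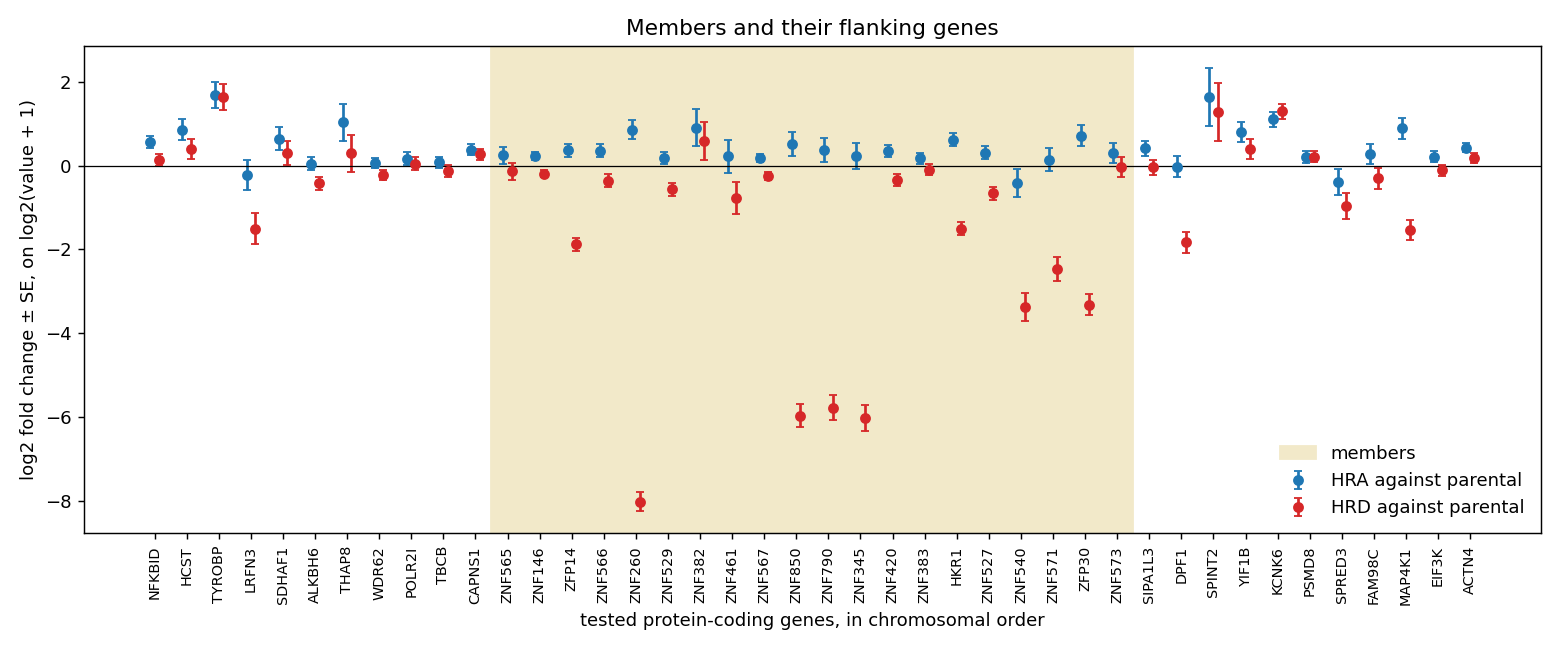
Log2 fold change with its SE (on log2(value + 1)) of HRA and HRD against parental, for the 20 tested members (shaded) and the 22 tested flanking protein-coding genes, in chromosomal order. HRD points of members reach −8.01 at ZNF260 and return towards 0 at the genes beside it, while HRA points of members lie above 0 except that of ZNF540 (−0.42).

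The genes around the cluster were not used to choose it. The 15 nearest protein-coding genes of the table on either side were compared, of which 22 were tested in all. In HRD against parental, 2 were called higher and 4 lower, beside 10.7% and 12% of all tested genes, with a median log2 fold change of 0.09. The 3 nearest tested genes on the proximal side were not called: CAPNS1, a calpain subunit (0.27), TBCB, a tubulin cofactor (−0.12), and POLR2I, an RNA polymerase II subunit (0.04). On the distal side SIPA1L3 (−0.04) and SPINT2, a serine protease inhibitor (1.27 from low levels), were not called. DPF1, a subunit of a neuronal form of the BAF chromatin remodelling complex that lies between these, fell from 51.7 ± 10.8 normalized counts in parental to 13.6 ± 0.782 in HRD (SD, n = 3 each; log2 fold change −1.83 ± 0.24, limma adjusted p = 0.000373), while HRA was at 50.03 ± 1.16.

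Further out, MAP4K1, a kinase of blood cells, fell in HRD from 224 ± 28.4 to 77.5 ± 18.2 normalized counts (log2 fold change −1.54 ± 0.25, limma adjusted p = 0.00133), and LRFN3, a neuronal adhesion protein, fell by 1.51 on the log2 scale (limma adjusted p = 0.0126). TYROBP, the adaptor DAP12 of myeloid receptors, rose from 46.5 ± 9.35 to 156 ± 74.5 (1.64 ± 0.31, limma adjusted p = 0.00364). KCNK6, a potassium channel, rose from 60.3 ± 9.87 to 149 ± 3.63 (1.30 ± 0.18, limma adjusted p = 0.000409). SPRED3, the last of the 6 called genes, had a log2 fold change of −0.95 (limma adjusted p = 0.045) and lost its call in 13 of the 18 other settings that tested it. The call of LRFN3 was lost without parental replicate 2 (0.0522) and without replicate 2 of all groups (0.079), and in both settings 2 flanking genes were lower. The called neighbours thus moved in both directions, and unlike ZNF260, ZNF850, ZNF790 and ZNF345 none had 3 reads or fewer in HRD.

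Genes without a coding sequence that lie between the members were viewed after the members' values were known. LOC728485 had 14 parental, 28 HRA and 0 HRD reads, and ZNF790-AS1, antisense to ZNF790, had 5, 6 and 1. LOC284412 and LINC01534 were called higher in HRD (log2 fold changes 1.39 ± 0.46 and 0.84 ± 0.25, limma adjusted p = 0.05 after rounding and 0.0336), and these calls were lost in 14 and 9 of the 18 other settings that tested them, among them several that leave out 1 library. ZNF529-AS1 was not called in HRD (−0.36), and its means were 189 ± 27.2 and 149 ± 40.5 normalized counts in parental and HRD. These genes thus held examples without HRD reads and examples with HRD means above the parental ones.

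HRA against parental was the comparison that the choice of members did not use, although it shares the parental libraries. Of 20 tested members, 2 were called higher and 0 lower, beside 9.13% of all tested genes called higher and 6.1% called lower, and 10.0% of the members is near that background. Unadjusted p-values below 0.05 in limma gave 7 higher and 0 lower, and edgeR and DESeq2 on the recovered reads each gave 3 higher and 0 lower. In that order, 127 other tested zinc finger genes of chromosome 19 had 30, 16 and 21 higher and 11, 8 and 9 lower. The share of all tested genes is not given for these 3 counts, so they have no such background. ZNF260 was 1.82-fold higher in HRA in its means, 536 ± 77.3 against 294 ± 12.8 normalized counts (SD, n = 3 each; log2 fold change 0.86 ± 0.23, limma adjusted p = 0.0283). HKR1 was 1.52-fold higher, 413 ± 31.1 against 271 ± 42.3 (0.61 ± 0.15, limma adjusted p = 0.0209). Both were higher in 3 of 3 HRA libraries than in any parental library.

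These 2 calls were close to the threshold. Over the other settings the limma, edgeR or DESeq2 adjusted p ranged from 3.33e-06 to 0.113 for ZNF260 and from 0.00169 to 0.117 for HKR1. The call of ZNF260 was lost when any 1 parental or HRA library was left out (adjusted p of 0.0610 to 0.113). With all libraries kept, the same call was lost at a pseudocount of 0.5 (limma adjusted p = 0.0680) and without a filter (0.0669). That of HKR1 was lost without parental replicate 1 (0.0598), parental replicate 2 (0.0753), HRA replicate 1 (0.0761) or HRA replicate 3 (0.0771), and both were lost without replicate 2 of all groups (0.1104 and 0.117). Deviations from the group mean were correlated between parental and HRA libraries of the same number (0.22, 0.38 and 0.14). Differently numbered libraries of these groups reached 0.12. A fit with the library number as the replicate block called 6 members higher (HKR1, ZNF260, ZNF566, ZNF420, ZFP30 and ZNF146) and 0 lower, beside 12.5% of all tested genes called higher in that fit. ZFP30 had 154 ± 29.5 in HRA against 92.3 ± 5.00 in parental (0.71 ± 0.25, limma adjusted p = 0.0753, or 0.0376 with the block).

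The small differences in HRA had mostly the same sign. The log2 fold change was positive in 19 of 20 members and negative in ZNF540 (−0.42), with a median of 0.31, against −0.01 for all tested genes. In 9 members every HRA library lay above every parental one, beside 19.3% of all tested genes. Positive differences were also common outside the cluster: 746 tested protein-coding genes of chromosome 19 outside it had a median of 0.30, with 150 called higher and 15 lower, and the 22 flanking genes had a median of 0.40, with 7 called higher (NFKBID, HCST, TYROBP, YIF1B, KCNK6, MAP4K1 and ACTN4) and 0 lower. The flanking count was 5 without parental replicate 2, 2 without HRA replicate 1, HRA replicate 2 or parental replicate 3, 3 without HRA replicate 3 or without replicate 2 of all groups, and 4 without parental replicate 1. In HRD the median of those 746 genes was 0.02, with 43 called higher and 79 lower.

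The resistant lines were also set against each other, which shares the HRD libraries that chose the members. In HRD against HRA, 15 of 20 tested members were called lower and 0 higher, beside 16.2% of all tested genes called lower and 13.9% called higher. Unadjusted p-values below 0.05 in limma gave 16 lower and 0 higher, with 15 and 16 lower by edgeR and DESeq2 and 0 higher by either. In that order, 127 other tested zinc finger genes of chromosome 19 had 77, 64 and 67 lower and 2, 1 and 1 higher. The share of all tested genes is not given for these 3 counts. In 16 members every HRD library lay below every HRA one, beside 24.2% of all tested genes, and the median log2 fold change was −0.98 against 0.00 for all tested genes. ZNF260 had 1927 times as many depth-scaled reads in HRA as in HRD (95% counting interval 345 to 76155). The summed level of the members without ZNF146, whose level outweighs the others, was 4189, 4021 and 4703 normalized counts in parental, 5331, 4978 and 6117 in HRA and 2497, 2254 and 2691 in HRD libraries. The 3 groups did not overlap in this sum, HRA being highest and HRD lowest.

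The most like genes are the other zinc finger genes. Of 127 tested zinc finger genes elsewhere on chromosome 19, 48 (37.8%) were called lower and 4 higher in HRD against parental, 27 of them lower by at least 2-fold, with a median log2 fold change of −0.25 (28 were lower without replicate 2 of all groups). Of 222 tested zinc finger genes on other chromosomes, 41 (18.5%) were called lower and 12 higher, 6 lower by at least 2-fold, with a median of −0.07. In HRA the first list had 15 higher and 7 lower (median 0.18) and the second 13 higher and 17 lower (median −0.05). With the replicate block the second list had 22 higher and 22 lower. Lower calls in HRD were thus also found in zinc finger genes outside the cluster, and the difference between the lists was not tested.

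**Figure D4:**
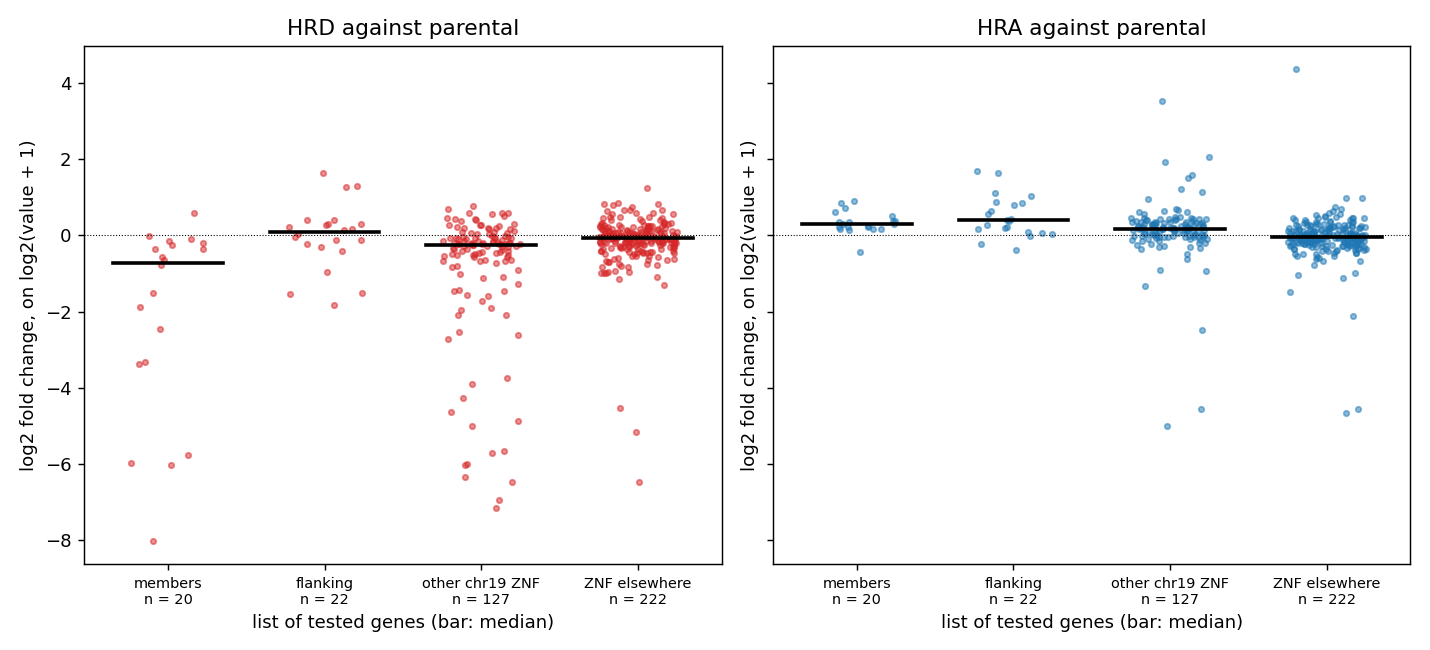
Log2 fold change (on log2(value + 1)) of each tested gene in HRD (left) and HRA (right) against parental, for the 20 members, 22 flanking genes, 127 other zinc finger genes of chromosome 19 and 222 zinc finger genes on other chromosomes. Points are genes and black bars medians: −0.72, 0.09, −0.25 and −0.07 in HRD, and 0.31, 0.40, 0.18 and −0.05 in HRA.

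The genes through which KRAB zinc finger proteins act moved in both directions, and TRIM28 and SETDB1 were called in neither resistant line. Of 31 such partner genes, all tested, 4 were called higher (CBX5, CHD3, HDAC2 and DNMT3A) and 6 lower (ATF7IP2, CBX1, PPHLN1, EHMT1, DNMT3B and HELLS) in HRD against parental, beside 10.7% and 12% of all tested genes, with a median log2 fold change of −0.03. TRIM28, the shared corepressor, had means of 9497 ± 1635 normalized counts in parental and 9661 ± 418 in HRD (0.04 ± 0.11, limma adjusted p = 0.848), and SETDB1, the methyltransferase, 2593 ± 214 and 2657 ± 202 (0.04 ± 0.09, limma adjusted p = 0.812; SD, n = 3 each). Among those called with a change of at least 1.5-fold, DNMT3A, a de novo DNA methyltransferase, rose from 112.6 ± 10.5 to 194 ± 4.32 (0.79 ± 0.15, limma adjusted p = 0.00398). ATF7IP2, a relative of the SETDB1 cofactor ATF7IP, fell from 1056 ± 165 to 689 ± 155 (−0.63 ± 0.17, limma adjusted p = 0.024), which was not called without parental replicate 1 (0.0576), parental replicate 3 (0.0902) or HRD replicate 2 (0.0826). In HRA against parental, 2 partner genes were called higher (DNMT1 and ZNF274) and 3 lower (SMARCAD1, DNMT3B and TET3), and leaving out 1 library gave 0 to 4 in each direction. None was lower in HRA without parental replicate 2, parental replicate 3, HRA replicate 1 or HRA replicate 3, none was higher without HRA replicate 2, and without replicate 2 of all groups the HRD counts were 2 higher and 3 lower. DNMT3B, also a de novo methyltransferase, was called lower in both resistant lines, although these calls were lost in 4 (HRA) and 10 (HRD) of the 19 other settings, at 501 ± 68.9 in parental, 336 ± 53.8 in HRA and 364 ± 22.6 in HRD. DNA methylation and histone marks at the cluster were not analysed here.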

How the data were processed

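The authors deposited 1 table of normalized read counts (unit signal, never negative) for polyA RNA of 9 HL-60 libraries. Each deposited signal value is a read count divided by a size factor per library: 100% of values above 0 were whole reads within a tolerance of 0.001 once that factor was found, and these recovered reads gave the depths. Per the submitters' processing notes the build was hg19 and the tools were HTSeq 0.11.1, DESeq2, Cufflinks 2.2.1, Picard, and both Bowtie2 2.3.5.1 and TopHat2 2.1.1. What each did, the gene annotation, and how strand was treated in counting are not given in the sources used here.

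The members, the gene lists and the tests were chosen with earlier results of these data known. Groups were taken from the sample titles. Genes that reached 10 normalized counts in 3 or more of the 9 libraries were fitted with limma 3.58.1 (R 4.3.3, lmFit and eBayes with a trend) on log2(value + 1), all 3 groups in 1 fit, with Benjamini-Hochberg adjustment over 12569 genes. The log2(value + pseudocount) scale understates the change of low genes. Where a group held 0 reads, a fold was taken against 3 reads over the group, and 1 read was given a ratio with a 95% counting interval. With 3 libraries a group, the smallest p of an exact permutation test is 0.1, and no such test was used. The fit was also run on simulated counts, with an outcome that is not reported here. That simulation had no replicate effect and no genes made to fall to 0 reads, so it does not cover such genes.

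Same-numbered parental and HRA libraries had correlated deviations from their group means (0.22, 0.38 and 0.14), so a fit with a replicate block is given beside that comparison. Differently numbered ones had −0.28 to 0.12, the highest between parental replicate 1 and HRA replicate 3, close to the 0.14 of replicate 3. Same-numbered HRD libraries had correlations of −0.08, 0.26 and 0.29 with parental and −0.03, 0.41 and 0.23 with HRA libraries. These were positive for replicates 2 and 3 but not for replicate 1, so whether HRD is paired with the other groups is unclear. HRA replicate 3 and HRD replicate 1 had 0.22, near the 0.23 of HRA and HRD replicate 3. Other settings, 19 in all, were pseudocounts of 0.5 and 5, no filter, a mean of at least 50, edgeR 4.0.16 (quasi-likelihood) and DESeq2 1.42.0 on the recovered reads, TMM log2 CPM, 2 groups only, the block, leaving out each library and, added after seeing the data, leaving out replicate 2 of all groups.

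Values in every library were planned for the members with a parental mean of at least 100 that had the 6 most and 6 least negative fold changes in HRD (11 members reach that mean), for members called in HRA and for ZNF260. Of flanking genes the nearest 3 tested on each side and those called with a fold of at least 2 were named, and of the partner genes TRIM28, SETDB1 and those called with a fold of at least 1.5. Other members given in full were chosen after their values were seen. A planned check of the cell line by genes it lacks is not reported here.

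Gene order, neighbours and promoter sequences came from RefSeq (GRCh38.p14), to which 19642 of 20637 symbols were matched. Windows were found for 27 of 30 members and none for ZFP14, ZNF571 and ZNF781. The bases after the start were found in a GENCODE v29 transcript of the gene for 23 of the 27. Promoters and counts come from different builds, and no coordinate was moved between them.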

Additional observations from a re-analysis of the deposited data

Results flagged for a closer look

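In 7 of 20 tested members every HRA library lay above, and every HRD library below, every parental library, beside 2.38% of all tested genes. Of these 7, only ZNF260 and HKR1 were called higher in HRA, and ZNF567 was called against parental in neither line. The HRD mean was 21.1% of the HRA mean for ZFP14, 0.0308% for ZNF260, 74.1% for ZNF567, 0% for ZNF850, 22.9% for HKR1, 50.9% for ZNF527 and 5.57% for ZFP30. HRA libraries lay wholly above parental ones in 45.0% of tested members and 42.2% of 746 other tested chromosome 19 protein-coding genes. The members were chosen on the HRD libraries and both comparisons share the parental ones, so the opposed pattern was not tested.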

How the results depend on the processing

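Over the 19 other settings, the sign of all 11 members called lower in HRD against parental was kept, while the uncalled ZNF383 (0.04 without replicate 2 of all groups) and ZNF573 (0.05 without parental replicate 1, 0.02 without HRD replicate 3) turned positive. The fold changes of genes near 0 reads moved with the pseudocount or tool (ZNF260 from −5.86 to −9.81, ZNF850 from −3.73 to −9.08, ZNF790 from −3.55 to −8.89 and ZNF345 from −3.78 to −9.12). ZNF540 and ZFP30 were at −2.62 and −2.86 with a pseudocount of 5. The count of members lower in HRD was 7 with a mean of at least 50, where 4 of them were no longer tested. With the replicate block it was 14, beside 15.1% of all tested genes lower in that fit and 12% in the main fit. It was 10 to 12 without 1 library or replicate 2 of all groups. Against HRA it was 14 to 16. For HRA against parental, 2 members higher became 1 with a pseudocount of 0.5, 1 without a filter, 6 with the replicate block and 0 to 3 on leaving out libraries, and without a filter 1 was lower (ZNF569). Of single values in HRA, 348 stayed on the same side of the threshold, 14 lost and 9 gained a call, and 3 uncalled ones reversed: ZNF461 (−0.10 to 0.47 on leaving out libraries, negative without parental replicate 2 or HRA replicate 3) and ZNF571 (−0.020 to 0.42, with 0.29 without HRA replicate 2, negative without HRA replicate 3). Flanking genes lower in HRD numbered 1 with a mean of at least 50 and 2 to 4 on leaving out libraries, those higher in HRD 2 to 3, and those higher in HRA 2 to 7. Partner genes higher in HRD numbered 2 with 2 groups only and 2 to 4 on leaving out libraries, and those lower 3 to 6. In HRA both directions gave 0 to 4, and 1 was lower without a filter. Other zinc finger genes of chromosome 19 higher in HRD numbered 3 to 4 and those lower 28 to 46 on leaving out libraries, the lowest being without replicate 2 of all groups. The causes of these changes were not tested. The replicate block moved no other of these counts by over 1.5 times. Deviations of same-numbered libraries correlated positively for every number between parental and HRA, but with HRD only for replicates 2 and 3. Some differently numbered libraries came close, with up to 0.12 between parental and HRA and 0.22 between HRA and HRD. Low counts limit the 8 untested members, of which none exceeded 43 reads in a group, and 3 replicates of 1 population per line limit all comparisons.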

Other observations

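Replicate 2 tended to hold the lowest value of a member. Of the 20 tested members, 8 were lowest in replicate 2 among the parental libraries, 14 among the HRA and 12 among the HRD libraries, beside 29.1%, 38.1% and 31.4% of all tested genes. For 6 members (HKR1, ZNF461, ZNF527, ZNF529, ZNF540 and ZNF566) this held in all 3 groups, beside 8.97% of all tested genes. Members that share a library are not independent, and the origin of this pattern was not tested. The number of the 28 members with any read was 26, 25 and 25 in the parental, 26, 24 and 23 in the HRA and 19, 18 and 19 in the HRD libraries.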
